A study of Mus musculus with 6 samples.

Results

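Transcripts of 10 genes that respond to bone morphogenetic protein (BMP) signalling were measured in neural progenitor cells on day 8 of their differentiation from mouse embryonic stem cells: Id1, Id2, Id3, Id4, Msx1, Msx2, Smad6, Smad7, Smad9 and Bambi. They were chosen by name, as the rows of the deposited count table whose Ensembl identifier carries one of these symbols in GENCODE M21. All 10 were found among 48526 rows, and 9 had enough reads to be tested. The libraries came from a line labelled -/- for Dmrta2, a zinc finger transcription factor gene of the dorsal telencephalon, and from a control line labelled flox/flox, whose Dmrta2 alleles carry loxP sites. There were 3 libraries per group, which the series' design text calls biological replicates of a line. Each genotype is 1 line, so genotype and line cannot be told apart. Cells of both groups were given the BMP receptor inhibitor LDN193189 (100 nM) and the activin and TGF-beta receptor inhibitor SB431542 (10 µM) up to day 4, the Wnt pathway inhibitor XAV939 (1 µM) up to day 6, and the Hedgehog pathway inhibitor cyclopamine (1 µM) from day 2, which was still in the medium when RNA was taken. The comparison shows how the transcripts of a BMP response differ between these libraries 4 days after the BMP receptor inhibitor was withdrawn.

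BMP ligands bind pairs of serine/threonine kinase receptors, which phosphorylate Smad1, Smad5 and Smad9; these join Smad4 and bind DNA at the genes they activate. Id genes are among the most direct of these targets, and their products are helix-loop-helix proteins without a DNA-binding region that hold E proteins away from proneural factors. Msx1 and Msx2 encode homeobox repressors of the dorsal midline, and Smad6, Smad7 and Bambi encode inhibitors that BMP signalling induces against itself. In the embryonic forebrain several of these genes are known from the roof plate, cortical hem and choroid plexus, where BMP ligands are made.

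Libraries are named by genotype and the letter in the table's column (A, B or C). Total counts ran from 29031604 to 39646793 in the libraries labelled -/- and from 24565560 to 29820515 in the flox/flox libraries, so that a level of 1 CPM, the unit of counts scaled by library size, stood for at least 24.6 reads. Dmrta2 itself measured 409, 414 and 439 CPM in the libraries labelled -/- and 85.2, 75.1 and 79.2 CPM in the flox/flox libraries. It was thus higher where the label says -/-. The labels do not say which part of the gene was removed, and the count covers the whole gene, so it does not test the deletion. Every direction given is that of the libraries labelled -/- relative to the libraries labelled flox/flox. "Fell" and "rose" are used of genes with an adjusted p under 0.05 in edgeR's quasi-likelihood test.

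Of the 9 tested members, 6 fell in the libraries labelled -/- (Id1, Id3, Msx1, Msx2, Smad6 and Bambi), by between 4.29-fold and 16.3-fold, and 0 rose. Called higher were 1 by limma-voom, 0 by DESeq2 and 1, Id4, in the edgeR fit with the column letter as a block. At an unadjusted p under 0.05 (edgeR) 1 was higher. Over all 20549 genes tested, 35.3% passed the threshold, 17.4% being lower and 17.9% higher, against 66.7% of the tested members lower. The median log2 fold change was -2.39 over the 9 members and -0.0025 over all tested genes. The response was uneven within families: Id2 and Smad7 did not pass, and Id4 was higher in every library labelled -/-. CPM in all 3 libraries labelled -/- lay below all 3 flox/flox libraries for 7 of the 9 members, as for 25.4% of all tested genes, and above them for 1 member, as for 25.5%. Smad9 had 7, 6 and 8 reads in the libraries labelled -/- and 9, 5 and 4 reads in the flox/flox libraries, too few for the test. None of the 10 genes lies on chromosome 11, where the median log2 fold change of tested genes was 0.49 against -0.02 elsewhere.

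**Figure D1:**
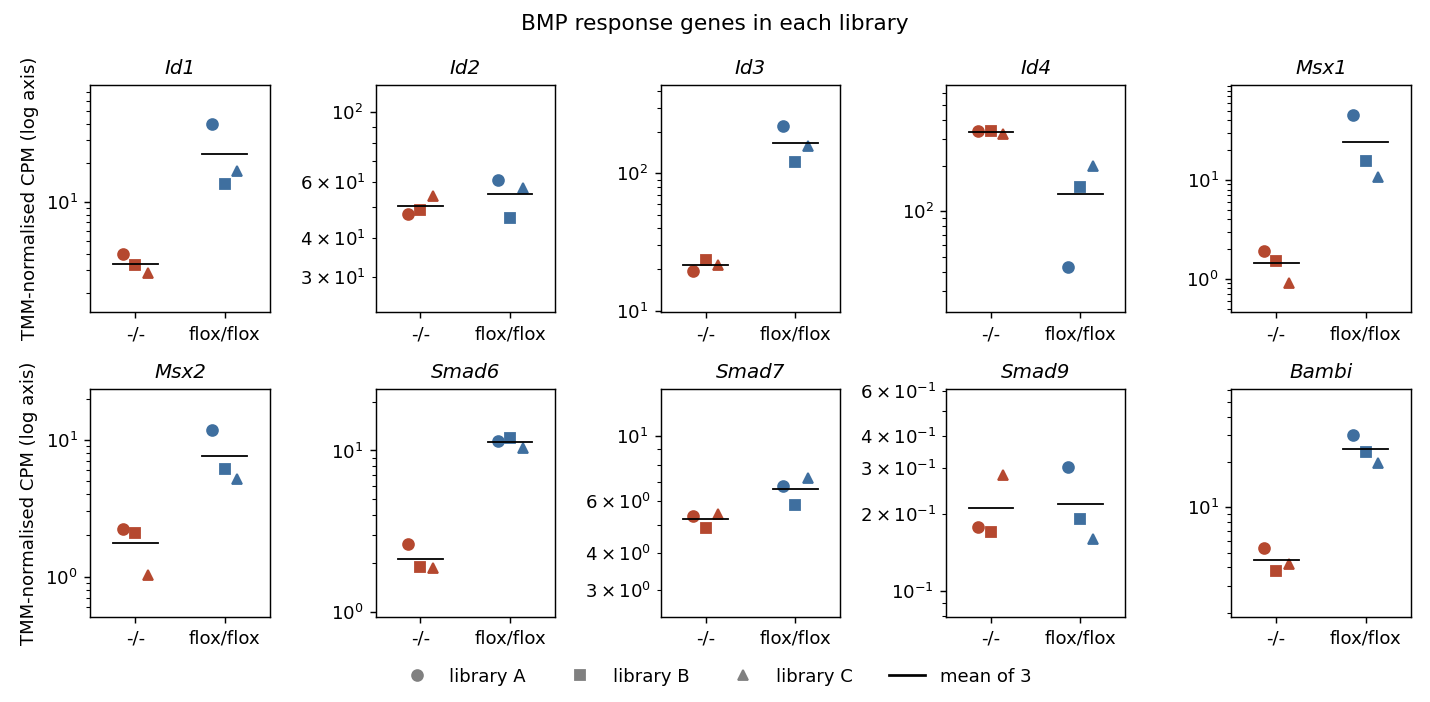
TMM-normalised CPM (log axis, with its own range in each panel) of the 10 members in the 3 libraries labelled -/- (left) and the 3 flox/flox libraries (right), with the letter of the library as the symbol and the mean of 3 as a line. The groups stand apart for Id1, Id3, Msx1, Msx2, Smad6, Smad7 and Bambi, which are lower in the libraries labelled -/-, and for Id4, which is higher, and they overlap for Id2 and Smad9.

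Promoter sequence was read from RefSeq's table on GRCm38.p6, which matched 7 of the 10 members, as the 250 bases before each start site. Windows are shown for Id4, the member that was higher in the libraries labelled -/-, and for Msx1 and Smad6, which fell, because these windows hold no annotated exon. The window of Smad9, which was not tested, holds none either and is not shown. All 250 bases of the Id3 and Msx2 windows, and 161 bases of the Id2 window, lie in exons that GENCODE M21 gives to the same gene. They are given 5' to 3' on the strand of the gene, for Id4 chr13:48260866-48261115 (plus strand), Msx1 chr5:37824586-37824835 (minus) and Smad6 chr9:64022060-64022309 (minus), with capitals for matches to the boxes that Smad proteins bind, GGCGCC and CAGAC.
Id4: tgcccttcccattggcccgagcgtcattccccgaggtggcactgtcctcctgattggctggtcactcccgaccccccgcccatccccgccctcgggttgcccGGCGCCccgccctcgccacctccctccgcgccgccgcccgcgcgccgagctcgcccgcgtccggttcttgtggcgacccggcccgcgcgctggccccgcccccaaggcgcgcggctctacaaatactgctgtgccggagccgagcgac
Msx1: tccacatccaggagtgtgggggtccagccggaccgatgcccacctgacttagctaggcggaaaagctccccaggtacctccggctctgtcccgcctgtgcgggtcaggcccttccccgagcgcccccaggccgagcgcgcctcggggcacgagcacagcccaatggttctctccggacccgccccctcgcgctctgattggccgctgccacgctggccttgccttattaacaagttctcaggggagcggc
Smad6: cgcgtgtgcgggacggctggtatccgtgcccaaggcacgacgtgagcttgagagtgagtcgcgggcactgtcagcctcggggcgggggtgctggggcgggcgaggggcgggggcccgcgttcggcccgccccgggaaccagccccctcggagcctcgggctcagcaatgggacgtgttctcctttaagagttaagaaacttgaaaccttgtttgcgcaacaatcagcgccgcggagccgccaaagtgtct
Both boxes were searched on both strands and no matches overlapped. GGCGCC stood once each in the windows of Id2, Id4 and Smad9 and in 9.59% of all 32851 windows of this length, and CAGAC stood in the window of Id3, with 2 matches, and in 42.2% of all windows. The windows of Msx1, Msx2 and Smad6 held neither. The 7 windows were 61.6% to 75.6% G and C, from Msx2 to Id4. A match is a run of letters and not evidence of binding, and regions farther from the start site were not searched.

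Id1 and Id3 fell, and Id4 stood in the place of Id3 as the leading Id transcript by RPKM, the level per kilobase of exon. Id1 (chromosome 2, 152736251 to 152737410, on the plus strand) measured 3.96, 3.32 and 2.85 CPM in libraries A, B and C labelled -/- and 39.8, 13.9 and 17.3 CPM in the flox/flox libraries, also in the order A, B, C. All 3 libraries labelled -/- were below every control, and flox/flox A stood well above the other controls. The log2 fold change was -2.80 ± 0.41 (SE), 6.97-fold lower, with an adjusted p of 0.00224 (edgeR); without flox/flox A it was 4.57-fold lower. Id3 (chromosome 4, 136143497 to 136145755, on the plus strand) measured 19.5, 23.4 and 21.7 CPM in the libraries labelled -/- and 220.0, 120.2 and 157.0 CPM in the flox/flox libraries. The groups were far apart, with flox/flox A again the highest. Id3 fell by 2.95 ± 0.22 on the log2 scale, 7.70-fold, with an adjusted p of 0.000338 (edgeR).

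Id4, a family member made by proliferating neural progenitors, went the other way. Id4 (chromosome 13, 48261228 to 48266026, on the plus strand) measured 338.2, 339.1 and 320.5 CPM in the libraries labelled -/- and 43.3, 145.5 and 199.8 CPM in the flox/flox libraries. The groups did not overlap: the libraries labelled -/- were close together, while flox/flox A was far below flox/flox B and C, the reverse of its place for Id1 and Id3. The log2 difference was 1.36 ± 0.46 (SE), 2.57-fold, and just missed the threshold (adjusted p = 0.0528, edgeR). It passed with the column letter as a block (1.58, adjusted p = 0.018), a fit in which 21.2% of all genes were higher and 20.3% lower past the threshold. Without flox/flox A the difference was smaller but passed (1.93-fold, adjusted p = 0.00396, edgeR), and without flox/flox C it was 3.54-fold (adjusted p = 0.0204). Over all 14 alternatives the adjusted p lay between 0.00396 and 0.117, and 5 of them passed. Of the exonic bases of Id4, 4.44% also lie under exons of genes on the other strand.

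Id2 (chromosome 12, 25093799 to 25097140, on the minus strand) measured 47.7, 48.9 and 54.4 CPM in the libraries labelled -/- and 61.1, 46.3 and 57.3 CPM in the flox/flox libraries. The ranges overlapped, and the log2 difference of -0.13 ± 0.11 (SE) did not pass (adjusted p = 0.412, edgeR; between 0.102 and 0.812 over the alternatives).

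Divided by exonic length (RPKM), levels can be set against each other. Id4 made up 72.2%, 71.0% and 69.3% of the Id family's RPKM in libraries A, B and C labelled -/- and 5.82%, 27.8% and 29.2% in the flox/flox libraries. Id3 made up 8.94%, 10.5% and 10.1% in the libraries labelled -/- and 63.5%, 49.4% and 49.3% in the flox/flox libraries. Id3 was therefore the leading Id transcript in every control library, and Id4 in every library labelled -/-. The summed RPKM of the 4 Id genes was 122.0 ± 1.97 in the libraries labelled -/- and 169.1 ± 29.8 in the flox/flox libraries (SD, n = 3 each), and without Id4 it was 35.6 ± 1.54 in the libraries labelled -/- and 135.4 ± 42.8 in the flox/flox libraries. Tcf3, Tcf4 and Tcf12, the genes of the E proteins that Id proteins bind, all fell, by 1.20-fold, 1.4-fold and 1.20-fold (adjusted p = 0.00769, 0.00251 and 0.00842, edgeR; Tcf12 at 0.0505 without -/- B). The ratio of summed Id to summed E protein RPKM was 1.71, 1.80 and 1.76 in the libraries labelled -/- and 2.33, 1.60 and 2.08 in the flox/flox libraries, so these ratios overlapped.

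**Figure D2:**
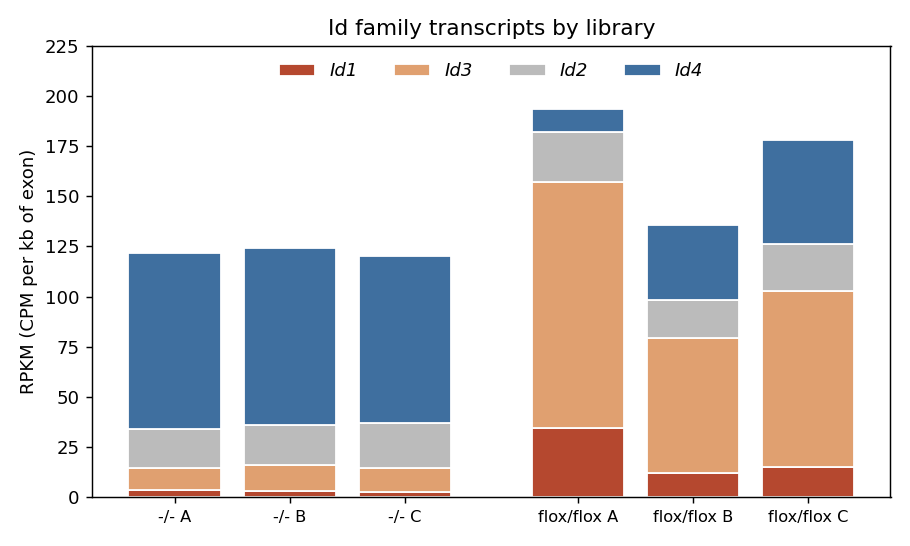
Stacked RPKM (CPM per kilobase of exon) of Id1, Id3, Id2 and Id4 in each library, with the 3 libraries labelled -/- on the left and the 3 flox/flox libraries on the right. Id4 takes 69.3% to 72.2% of the bar in the libraries labelled -/- and 5.82% to 29.2% in the flox/flox libraries, where Id3 takes the most.

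Both Msx genes fell. Msx1 (chromosome 5, 37820485 to 37824583, on the minus strand) measured 1.91, 1.53 and 0.915 CPM in the libraries labelled -/- and 45.8, 15.7 and 10.8 CPM in the flox/flox libraries. Every library labelled -/- was below 2 CPM, and flox/flox A stood well above the other controls. The fall of 4.03 ± 0.61 on the log2 scale was 16.3-fold (adjusted p = 0.00251, edgeR), and 8.93-fold without flox/flox A. Msx2 (chromosome 13, 53466884 to 53473074, on the minus strand) measured 2.21, 2.07 and 1.02 CPM in the libraries labelled -/- and 11.8, 6.08 and 5.22 CPM in the flox/flox libraries. The groups did not overlap, and as for Msx1 library A was the highest and library C the lowest in each. The log2 fold change was -2.10 ± 0.39 (SE), 4.29-fold lower, with an adjusted p of 0.0055 (edgeR). In RPKM, Msx1 stood at 0.783 to 0.949 times Msx2 in the libraries labelled -/- and at 2.19 to 4.12 times Msx2 in the flox/flox libraries.

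Of the inhibitors, Smad6 and Bambi fell and Smad7 did not pass. Smad6, whose product blocks BMP receptors and Smad1 in preference to the activin and TGF-beta branch, lies on chromosome 9 (63953076 to 64022059, minus strand). It measured 2.64, 1.90 and 1.86 CPM in the libraries labelled -/- and 11.5, 12.0 and 10.3 CPM in the flox/flox libraries. The controls lay close together here, with flox/flox A inside their range. The fall was 2.39 ± 0.17 on the log2 scale, 5.23-fold (adjusted p = 0.000325, edgeR), and between 2.29 and 2.57 over the alternatives.

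Bambi, the gene of a pseudoreceptor without a kinase domain, lies on chromosome 18 (3507923 to 3516404, plus strand). It measured 5.39, 3.77 and 4.19 CPM in the libraries labelled -/- and 30.4, 23.4 and 19.8 CPM in the flox/flox libraries, with no overlap. The log2 fold change was -2.46 ± 0.20 (SE), 5.49-fold lower, with an adjusted p of 0.000381 (edgeR). Smad7, whose product inhibits both the BMP and the TGF-beta branch, lies on chromosome 18 (75367529 to 75395935, plus strand). It measured 5.34, 4.88 and 5.45 CPM in the libraries labelled -/- and 6.76, 5.81 and 7.21 CPM in the flox/flox libraries. The groups did not overlap, but the log2 difference of -0.34 ± 0.13 (SE) did not pass (adjusted p = 0.0769, edgeR; between 0.0546 and 0.239 over the alternatives). In RPKM, Smad6 stood at 0.482 to 0.699 times Smad7 in the libraries labelled -/- and at 2.02 to 2.91 times Smad7 in the flox/flox libraries, so which of these inhibitors had the higher level differed between the groups.

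**Figure D3:**
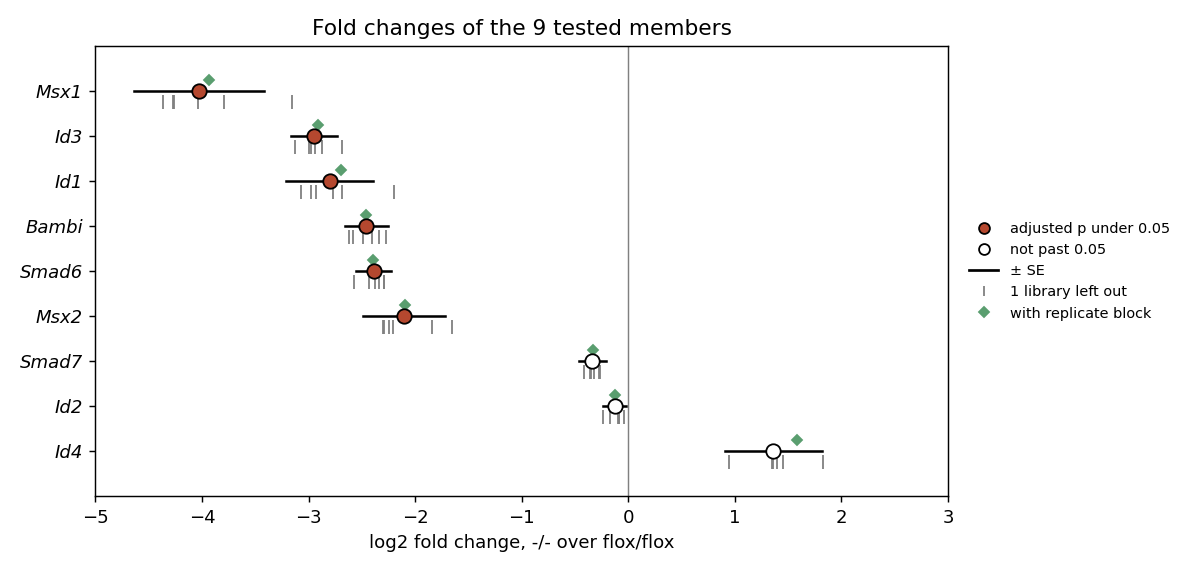
Log2 fold change, -/- over flox/flox, of the 9 tested members, with ± SE as a line, filled circles for an adjusted p under 0.05, grey ticks for the fits with 1 library left out and diamonds for the fit with the column letter as a block. Msx1 lies farthest to the left at -4.03, Smad7 and Id2 lie near 0, and Id4 lies at 1.36.

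By mean RPKM the order in the libraries labelled -/- was Id4 (86.4), Id2 (20.6), Id3 (12.0), Id1 (2.91), Smad7 (1.16), Bambi (0.877), Smad6 (0.666), Msx2 (0.539), Msx1 (0.468) and Smad9 (0.0391). In the flox/flox libraries it was Id3 (92.5), Id4 (33.7), Id2 (22.5), Id1 (20.4), Msx1 (7.77), Bambi (4.83), Smad6 (3.51), Msx2 (2.34), Smad7 (1.46) and Smad9 (0.0406). Neighbours whose 3 libraries overlapped were Bambi and Smad6, Smad6 and Msx2, and Msx2 and Msx1 in the libraries labelled -/-. In the flox/flox libraries they were Id4 and Id2, Id2 and Id1, Id1 and Msx1, Msx1 and Bambi, Smad6 and Msx2, and Msx2 and Smad7. 

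The BMP ligand genes fell with the members, while the receptor genes moved in both directions. Over all genes tested, 17.4% were lower and 17.9% higher. All 8 ligand genes of the list used here fell, with a median log2 fold change of -2.66, among them Bmp6 (10.3-fold), Bmp7 (4.29-fold) and Bmp2 (3.35-fold), with adjusted p of 0.000559, 0.000879 and 0.000617 (edgeR). The list was written with earlier results of these data known, and 7 of its genes fell without -/- A or without -/- B. It includes Bmp5 and Gdf5, of whose exonic bases 46.7% and 40.3% lie under another gene. Bmp4, named because its profile lay nearest to that of Msx1, measured 2.95, 2.98 and 1.97 CPM in the libraries labelled -/- and 75.4, 32.4 and 20.8 CPM in the flox/flox libraries. It was 16.1-fold lower, and 10.0-fold without flox/flox A. Among the controls flox/flox A was the highest and flox/flox C the lowest. Msx1 had the same order and a similar fold, which follows from how Bmp4 was picked. In bulk samples fewer cells of a type and less RNA per cell cannot be told apart.

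Of 12 secreted antagonists 4 fell and 2 rose, with a median of -0.23, beside 17.4% lower and 17.9% higher over all genes tested. Nbl1 fell 2.46-fold, Fstl1 2.29-fold and Sostdc1 3.29-fold (2.19-fold without flox/flox A, and adjusted p = 0.0569 without -/- B, edgeR). Bmper, a secreted modulator of BMP activity, rose 2.84-fold. Without -/- B, 2 antagonists fell, and 1 rose without flox/flox A, without flox/flox B or without -/- C. In the fit blocked on the column letter, in which 20.3% of all genes tested were lower and 21.2% higher, 5 fell and 2 rose.

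Of 11 receptor and co-receptor genes 3 fell and 4 rose, with a median of 0.05. The shares over all genes tested were 17.4% lower and 17.9% higher. The type I receptor gene Bmpr1b rose 2.67-fold (6.06 ± 0.463 CPM in the libraries labelled -/- and 2.28 ± 0.319 CPM in the flox/flox libraries, SD, n = 3), Acvr2a 1.81-fold and Rgmb, a co-receptor gene, 2.13-fold. Eng fell 1.58-fold, Acvrl1, an endothelial type I receptor gene, 2.28-fold and Bmpr1a, a further type I receptor gene, 1.19-fold. With 1 library left out the adjusted p of Bmpr1a reached 0.0618 without flox/flox A, 0.0661 without flox/flox B and 0.0963 without -/- B. That of Acvrl1 reached 0.0572 without flox/flox A, 0.0801 without flox/flox C, 0.0673 without -/- B and 0.0505 without -/- C, and that of Rgmb 0.0798 without flox/flox B and 0.0541 without -/- C (edgeR). Accordingly 1 receptor gene fell without flox/flox A or -/- B, and 2 rose without flox/flox B or -/- C.

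Of the Smads that carry the signal, Smad9 had too few reads to be tested, and Smad1 to Smad5 differed by at most 1.36-fold. Smad1 measured 45.5 ± 4.43 CPM in the libraries labelled -/- and 44.9 ± 2.21 CPM in the flox/flox libraries (SD, n = 3 each), a log2 difference of 0.02 ± 0.08 (SE), and Smad5 measured 138.1 ± 5.08 CPM in the libraries labelled -/- and 152.0 ± 8.30 CPM in the flox/flox libraries, a difference of -0.14 ± 0.06. Neither passed, nor did Smad2 (-0.10 ± 0.06), with adjusted p of 0.884, 0.115 and 0.251 (edgeR). Smad4, the common partner, fell 1.24-fold and Smad3 1.36-fold (adjusted p = 0.00368 and 0.0089, edgeR). Of 15 genes that modulate Smads 3 fell and 3 rose, with a median of 0.00, and these shares are close to the 17.4% lower and 17.9% higher over all genes tested. Among them Ski, a corepressor, fell 1.44-fold, Yy1 1.26-fold and Fkbp1a 1.20-fold. Smurf2, a ubiquitin ligase, rose 1.4-fold, Zeb2 1.66-fold and Hipk2 1.19-fold. Smurf2 lies on chromosome 11, where the median log2 fold change of all tested genes was 0.49, so its rise is not particular to it. The call for Fkbp1a was lost without flox/flox B (adjusted p = 0.0679) or without -/- B (0.0619, edgeR).

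Of 13 further genes that BMP induces in other tissues 4 fell and 1 rose, with a median of -0.61. Cdx2 fell 2.75-fold, Atoh8, a bHLH factor gene, 2.81-fold and Tfap2c 1.53-fold (adjusted p = 0.0543 without -/- C, edgeR), and Tfap2a, on the contrary, rose 2.01-fold. Without -/- C, 2 fell and 2 rose, without flox/flox C 2 rose, and 2 rose in the fit blocked on the column letter. In the activin and TGF-beta branch, 4 of 11 genes fell and 1 rose, with a median of -0.54. Both lists stand beside 17.4% lower and 17.9% higher over all genes tested. Tgfbr3 fell 2.12-fold and Ccn2 2.15-fold (23.2% of its exonic bases lie under another gene). Without flox/flox B, 2 genes of this branch fell, and in the blocked fit 6 fell and 2 rose.

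**Figure D4:**
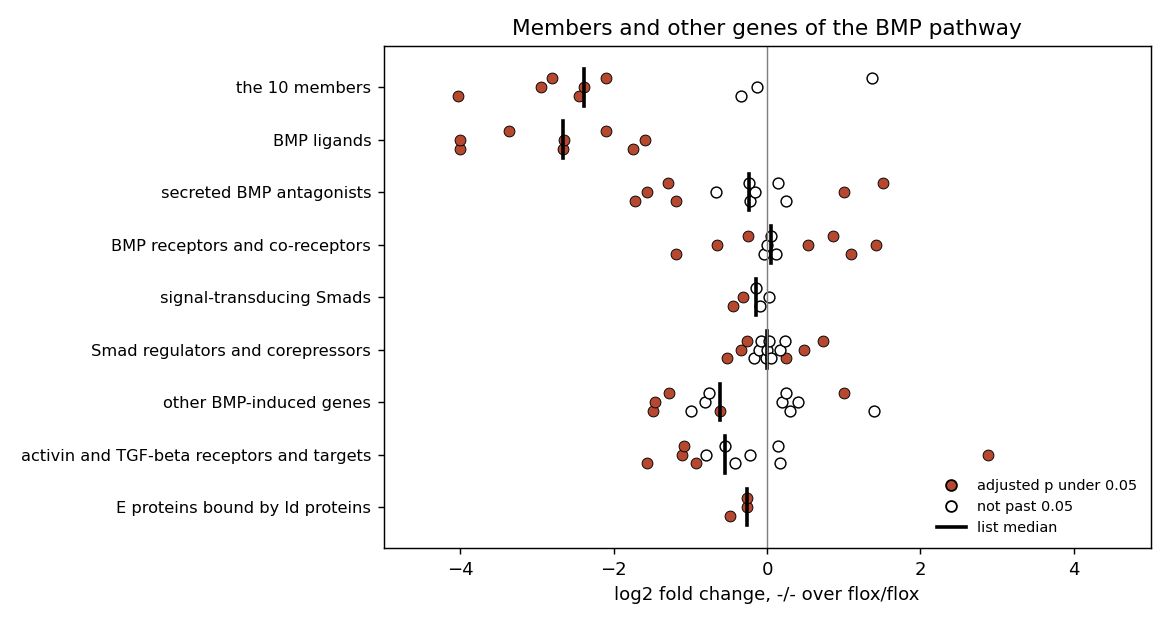
Log2 fold change, -/- over flox/flox, of the tested members and of the tested genes of 8 lists of the pathway, with filled circles for an adjusted p under 0.05 and a bar at the median of each list. The members (median -2.39) and the ligands (median -2.66) lie to the left, and the medians of the other lists lie between -0.61 and 0.05.

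The genes whose profile over the 6 libraries was nearest to a member's (Euclidean distance of centred log2 CPM, among 11041 protein-coding genes) were Bmp4 (distance 0.389) and Sulf1 (0.461) for Msx1, Lrrtm3 (0.378) and Lmx1a (0.505) for Id3, and Col6a3 (0.481) and Fos (0.486) for Id1. For Msx2 they were Igf2 (0.347) and Stra6 (0.348), for Bambi one was Nr4a3 (0.325), and for Smad6 Sema3b (0.357) and Nr4a3 (0.383). The nearest to Smad7 were Amz1 (0.0869) and Arl14ep (0.105). Id4 had no gene as near, with Dbx1 at 0.859 and Pdzph1 at 0.862. The libraries form 2 groups, so these distances mostly reflect the difference between them.

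Markers of some other cell types were also lower in the libraries labelled -/-, but not all markers were. The counts of markers in this and the next paragraph stand beside 17.4% lower and 17.9% higher over all genes tested. Genes of the roof plate and choroid plexus summed to 16.6 to 31.3 CPM in the libraries labelled -/- and 102.7 to 184.8 CPM in the flox/flox libraries, where flox/flox A was the highest, and 5 of 8 tested fell (3 without -/- B, 7 in the blocked fit). Lmx1a, a roof plate transcription factor gene, was 8.22-fold lower. Surface ectoderm genes summed to 107.8 to 190.0 CPM in the libraries labelled -/- and 328.8 to 489.3 CPM in the flox/flox libraries, with 6 of 7 lower. Here flox/flox A was the lowest control and flox/flox C the highest. Krt5, Krt14 and Trp63, which define stratified epidermis, were below the filter in both groups. Krt5 had 0 reads in each library labelled -/- and 2, 2 and 0 reads in the flox/flox libraries. Mesoderm and endothelium genes summed to 29.5 to 53.9 CPM in the libraries labelled -/- and 105.3 to 140.2 CPM in the flox/flox libraries, with 3 of 7 lower (1 without flox/flox A or -/- B). Kdr, a receptor gene of mesoderm and endothelium, had the largest fall of this list, 12.9-fold (adjusted p = 0.0011, edgeR). The other 4 tested genes that did not pass were Cdh5, Hand1, Pecam1 and Tbx6, whose groups overlapped. Their log2 fold changes were -0.97, -0.88, -0.07 and 0.42. Tie1, an endothelial receptor gene, was below the filter, with 3, 3 and 1 reads in the libraries labelled -/- and 0 in each flox/flox library. Neural crest sums overlapped (98.2 to 168.5 CPM in the libraries labelled -/- and 88.4 to 115.9 CPM in the flox/flox libraries), with 3 of 9 lower (1 without -/- C, 4 in the blocked fit) and 3 higher (1 without flox/flox B), and Sox10 was below the filter.

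Neuron markers summed to 2640 to 4434 CPM in the libraries labelled -/- and 1243 to 2212 CPM in the flox/flox libraries, with 9 of 10 higher (5 without flox/flox A, 4 without flox/flox B and 10 in the blocked fit). Pluripotency genes summed to 66.7 to 92.6 CPM in the libraries labelled -/- and 112.7 to 121.3 CPM in the flox/flox libraries, with 4 of 9 lower (2 without flox/flox A or B) and none higher, against 5 lower and 1 higher in the blocked fit. Progenitor markers such as Sox2, Nes and Pax6 were abundant in both groups, as the labelled cell type requires, at 3732 to 4172 CPM in sum in the libraries labelled -/- and 4030 to 4709 CPM in the flox/flox libraries. Of these 10 progenitor genes 6 rose (3 without -/- B) and 4 fell (1 without flox/flox B or -/- B, 2 without flox/flox A or -/- C). Whether these other cells had a part in the falls of Id1, Id3, Msx1, Msx2, Smad6 and Bambi was not tested.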

How the data were processed

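RNA from 6 samples was sequenced after library preparation with a stranded mRNA kit from 1 µg, per the labels' protocols. The deposited table holds raw counts of reads for each Ensembl gene; BWA 0.5.9 and featureCounts 1.4.6 with build mm10 (GRCm38) are named in the submitters' processing notes. Strand setting, annotation release and the handling of duplicates and of reads with several hits are not given in the sources used, so overlapping genes can share reads. Columns carry a genotype and a letter, so each was given a group but no replicate number; 0 columns were left out.

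Symbols, positions and exonic lengths came from GENCODE M21 (GRCm38), which matched 48058 of 48526 identifiers; rows without a symbol held 0.196% to 0.226% of the counts. Genes passing filterByExpr (count of at least 10, total of at least 15) were scaled by TMM and tested two-sided with edgeR 4.0.16 (R 4.3.3) with group alone in the model, and Benjamini-Hochberg adjustment of p-values covered all 20549 genes tested, with a threshold of 0.05. The fit was tested on simulated data, drawn with a common dispersion and without pairing, a simpler setting than that of these libraries. Levels are TMM-normalised CPM, RPKM is that CPM per kilobase of exon, ± is the SD of 3 libraries for levels and the SE of the coefficient for fold changes. Libraries of a group differed by more than sampling noise (chi-square per gene 5.14 to 27.6), and p-values measure only the spread between the libraries of 1 line.

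The members and the lists (8 of the pathway, 7 of cell type markers) were chosen with earlier results of these data known. All members are named, with up to 3 genes per direction of each pathway list by adjusted p at a mean of at least 1 CPM, all signal-transducing Smads and E proteins, and the 2 nearest profiles per member (log2 of CPM plus 0.5, genes with a mean of at least 5 CPM). Bmp4, Lmx1a, Ttr, Wnt1, Aqp1, Kcne2, Kl, Krt5, Krt14, Trp63, Kdr, Cdh5, Hand1, Pecam1, Tbx6, Tie1 and Sox10 were added beside them. Some genes that this rule names are not reported here. Same-lettered libraries of the groups deviated together from their group means (correlation across genes 0.353, 0.139 and 0.34 for A, B and C). Between different letters the correlations ran from -0.387 to 0.0545. The letters were therefore treated as a possible pairing of the libraries, most weakly for B. The titles give replicate numbers and the columns letters, and neither states a pairing. The main fit does not use it. The fit with the letter as a block is given beside the members whose call it changes and beside the lists whose counts it changes. Alternatives were DESeq2 1.42.0, limma-voom (limma 3.58.1), other scalings, other filters, each library left out and the block.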

Additional observations from a re-analysis of the deposited data

How the results depend on the processing

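The 6 members that fell remained called lower under all 14 alternatives (6 of 6 shared in each), and the sign of the fold change held for all 9 tested members in each. The number of members called higher was 0 in the main analysis and 1, Id4, with no low-count filter, with limma-voom, and with the replicate block on the column letter (log2 difference of Id4 1.38, 1.64 and 1.58); with 1 library left out it ran from 0 to 1, being 1 when flox/flox A or C was the one left out. The cause was not tested. The fit with the block changed no other call among the members. With 1 library left out, the number of genes called ran from 4717 (without flox/flox B) to 6846, against 7250 with all libraries. Leaving chromosome 11 out of the TMM factors gave a median absolute shift over all genes of 0.0251 on the log2 scale. Depth limits Smad9, with at most 9 reads in a library.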
